A study of Canis lupus familiaris with 4 samples.

Results

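The basic helix-loop-helix factor E2-2 is encoded by TCF4 and its close relative E12/E47 by TCF3. Both were described here together with ID1, ID2 and ID3, whose products inhibit them, in MDCK cells transfected with E2-2. The members are the array clones whose gene symbol in the platform annotation is exactly TCF4, TCF3, ID1, ID2 or ID3. This gave 14 of the 13824 clones and 28 of the 27648 spots. There were 2 clones of TCF4, 3 of TCF3, 2 of ID1, 4 of ID2 and 3 of ID3.

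E-proteins are class I helix-loop-helix factors that bind E-box DNA as dimers, either with each other or with tissue-restricted class II partners. Id proteins have the helix-loop-helix dimerisation part but lack the basic, DNA-binding part, so an E-protein bound by an Id cannot hold DNA. In epithelial cells, E47 and E2-2 are known as repressors of E-cadherin, and Id genes are known as targets of BMP signalling through SMAD proteins.

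MDCK is an established line of dog kidney epithelium. The transfectants are named E22A and E22B, taken here as carrying the A and B isoforms of E2-2, which the labels do not spell out, and each was compared with MDCK cells named CMV (called control in the label of E22B array 2). The title of E22A array 1 is spelled EE2A; the array was placed with E22A because E22A is the name in its channel 1 protocol, and every E22A value rests on that. Whether a transfectant is a clone or a pool was not given in the sources used here. All cells were kept in DMEM with fetal bovine serum, and the control RNA was on every array. Each transfectant is 1 biological sample with 2 arrays, so every SD below is technical (n = 2 arrays). The array was built from human cDNA clones and read with dog RNA. It gives ratios of 2 dyes and no expression level, so neither the identity of the line nor the level of any gene could be checked from it.

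The sign of a ratio was read as a side. CDH1 (E-cadherin) stood at 0.93 ± 0.20 and FN1 (fibronectin) at -1.72 ± 0.51 in E22B (log2, SD, n = 2 arrays), so positive values are called the E-cadherin side and negative values the fibronectin side. The CDH1 value rests on 1 of 3 clones. Another, of tag H97778, lacked a value on E22A array 2 and stood at -3.71 and 0.91 on the E22B arrays as deposited, on the same side but with a turning part of 2.31 and a non-turning part of -1.40, and the remaining clone had no value. If Cy5 is the numerator, the fibronectin side means lower in the transfectant, and if Cy3 is, higher. The labels do not settle this. The log base is not stated either and was taken as 2. The dye of E22B is named alike by its titles and its channel labels, and was exchanged between its arrays. For E22A they conflict on array 1 (Cy5 in the title, Cy3 in the channel label), so both readings are given. Its arrays correlated across features at r = -0.371 when turned by the titles, and so by construction at 0.371 when turned by the channel labels. The turned E22B arrays correlated at 0.407, which is not an alike measure. By the channel labels E22A has the same dye on both arrays, so they share any dye effect of a gene. In E22B, where the dyes were exchanged, turning sets such an effect against itself. As deposited, FN1 stood at 2.69 and 1.89 and CDH1 at -0.89 and -1.13 on the E22A arrays. By the titles these would be mainly non-turning parts, 2.28 for FN1 and -1.01 for CDH1, where E22B gave 0.36 and -0.14. The labels themselves leave the direction of E22A unsettled.

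Of the 14 clones, 8 had a value on all 4 arrays, 5 on some arrays and 1 on none. Spots with a value numbered between 22360 and 23136 per array. Duplicate spots of a clone differed by a median of 0.0210 to 0.0268 (log2) over all clones, and by a median of 0.0244 to 0.0585 over the member clones. The clones of ID1, ID2 and ID3 shared a sign on each array. Every one of them with a value was above 0, as deposited, on E22A array 1 (7 of 7 clones), E22A array 2 (6 of 6) and E22B array 1 (8 of 8), and below 0 on E22B array 2 (7 of 7). Over all clones, 50.6%, 50.2%, 49.9% and 48.4% were above 0 on these arrays. Several of these clones share a sequence tag or a gene, so they are not independent.

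**Figure D1:**
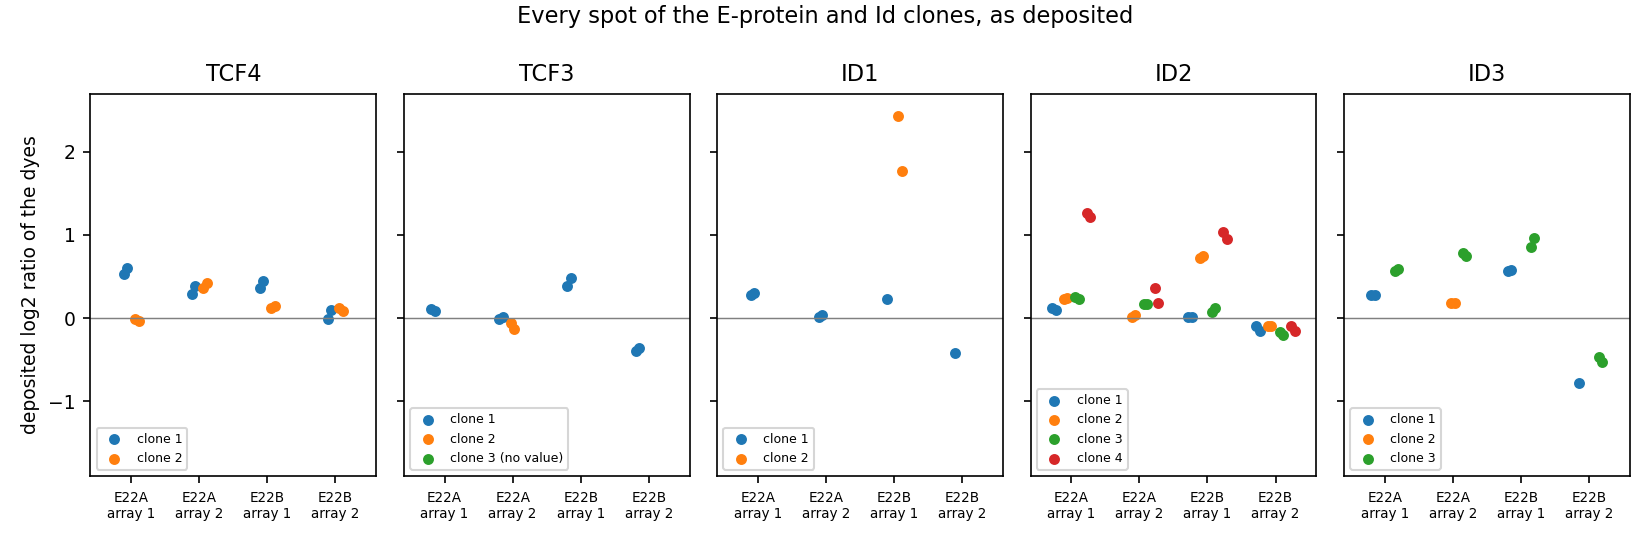
Deposited log2 ratio (vertical axis) of every spot of the member clones on the 4 arrays (horizontal axis), with a colour for each clone and a pair of points for its duplicate spots; clones are numbered within a gene by their place in the deposited table. The spots of ID1, ID2 and ID3 lie above 0 on the first 3 arrays and below 0 on E22B array 2, while TCF4 spots stay between -0.04 and 0.60; 1 TCF3 clone had no value on any array.

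TCF4, the transfected gene, was represented by the human expressed sequence tags AA284174 and AA669136 (human Entrez Gene 6925). The clone of AA284174 stood, as deposited, at 0.57 and 0.34 in E22A (arrays 1 and 2) and at 0.41 and 0.04 in E22B. The clone of AA669136 stood at -0.03 and 0.39 and at 0.14 and 0.10. The clones thus disagreed most on E22A array 1, and in E22B neither changed sign when the dyes were exchanged. Averaged, centred and turned, TCF4 stood at -0.27 and 0.08 on the E22B arrays, a mean of -0.09 ± 0.25, within its technical spread of 0. Its part that did not turn with the dye was 0.18, larger than the part that did. The sources used here do not say whether these clones match the introduced cDNA, so TCF4 does not check the labels.

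In E22A, TCF4 stood at -0.27 and -0.36 by the channel labels, on the fibronectin side of both arrays, with a mean of -0.32 ± 0.07. These are means of its clones, which lay on different sides of 0 on array 1 (0.57 and -0.03 as deposited). The SD over arrays does not hold that difference. By the titles the arrays opposed each other (0.27 and -0.36, mean -0.05 ± 0.45). The channel labels place E22A in Cy3 each time, so a dye effect of the gene is not removed from that mean. The part of the E22B ratio that did not turn, 0.18 above 0, lies on the same deposited sign as the E22A mean of 0.32, and its share in that mean was not tested.

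TCF3 (human Entrez Gene 6929) gave the most even pair of E22B values among the members. The clone of tag AA026102 stood, as deposited, at 0.43 on E22B array 1 and -0.37 on array 2. On E22A it stood at 0.09 and about 0 (-0.00101). Centred and turned, the E22B values were -0.43 and -0.36, a mean of -0.40 ± 0.05 on the fibronectin side and a fold of 1.32. The part that did not turn with the dye was 0.03. A second print of the same tag had no value on any array, and the clone of tag BM712221 had a value on E22A array 2 alone (-0.09), so the TCF3 result rests on 1 clone. In E22A, TCF3 was close to 0 in both readings, at -0.04 ± 0.07 (channel labels) and 0.05 ± 0.06 (titles).

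ID1, ID2 and ID3 lay on the fibronectin side of both E22B arrays. ID3 was the farthest from 0, at -0.91 and -0.48 on the arrays, a mean of -0.70 ± 0.30 and a fold of 1.62. ID2 stood at -0.61 and -0.13 (mean -0.37 ± 0.34) and ID1 at -0.23 and -0.41 (mean -0.32 ± 0.13). Of the 5 member genes, 4 were below 0 on both E22B arrays, the exception being TCF4, where 35.6% of all 8657 features were. None of the 5 was at 2-fold or more on both arrays, a size that 55 features (0.635%) met. In rank, 0.947% of all features lay lower than ID3 in E22B, 4.09% lower than TCF3, 5.36% lower than ID2, 7.43% lower than ID1 and 32.5% lower than TCF4.

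ID3 (human Entrez Gene 3399), whose gene value rests on 1 clone, has a clone of tag BE277021 measured on all arrays and 2 prints of tag AA482119. The BE277021 clone stood, as deposited, at 0.58, 0.76, 0.91 and -0.49 on E22A arrays 1 and 2 and E22B arrays 1 and 2. It was larger in size than 92.7%, 95.6%, 95.8% and 86.9% of the clones measured on those arrays. The first print of AA482119 stood at 0.27 on E22A array 1, 0.57 on E22B array 1 and -0.78 on E22B array 2, with no value on E22A array 2. The second print had a value only on E22A array 2, 0.18. The AA482119 value on E22B array 2 rests on 1 spot. The E22B parts that turned with the dye were -0.67 for AA482119 and -0.70 for BE277021, but AA482119 was the smaller in size on E22B array 1 and E22A array 1 and the larger on E22B array 2.

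ID2 (human Entrez Gene 3398) had clones of 3 tags, which differed in size. The clone of tag H89935 stood, as deposited, at 1.24 and 0.27 in E22A and at 0.99 and -0.13 in E22B. The clone of AA482267 stood at 0.23, 0.03, 0.74 and -0.10 in the same order. The prints of H82706 stood near 0 on E22B array 1, at 0.01 and 0.10, and at -0.12 and -0.18 on E22B array 2. All 4 clones lay in a narrow range on E22B array 2, from -0.18 to -0.10, and in a wide one on E22B array 1, from 0.01 to 0.99. The SD among the 3 ID2 clones measured on all arrays was 0.21 in E22B, against a median of 0.12 over the 1207 genes with more than 1 such clone and 0.12 for TCF4, the only other member with more than 1. The size of the ID2 mean thus depended on the clone, from -0.07 to -0.56 in E22B, while its side did not. The cause of these differences was not tested.

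ID1 (human Entrez Gene 3397) was thinly measured in E22B. The clone of tag AA457158 had both spots on the E22A arrays, at 0.29 and 0.03, but only 1 of its spots on each E22B array, at 0.23 and -0.42. The clone of tag BE275812 had values on E22B array 1 alone, where its spots stood at 2.43 and 1.76. This pair differed by 0.67, far above the 95th percentile of 0.135 for duplicate spots on that array, and it does not enter the ID1 mean. Were it taken in by a median over all spots, ID1 in E22B would move from -0.32 to -1.09.

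In order from the fibronectin side, the E22B means ran ID3, TCF3, ID2, ID1 and TCF4. ID3 and TCF3 did not overlap between arrays, at a difference of 0.30. Each of the other neighbours in that order overlapped, with differences of 0.03 (TCF3 to ID2), 0.05 (ID2 to ID1) and 0.23 (ID1 to TCF4), so their order is within the technical spread.

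**Figure D2:**
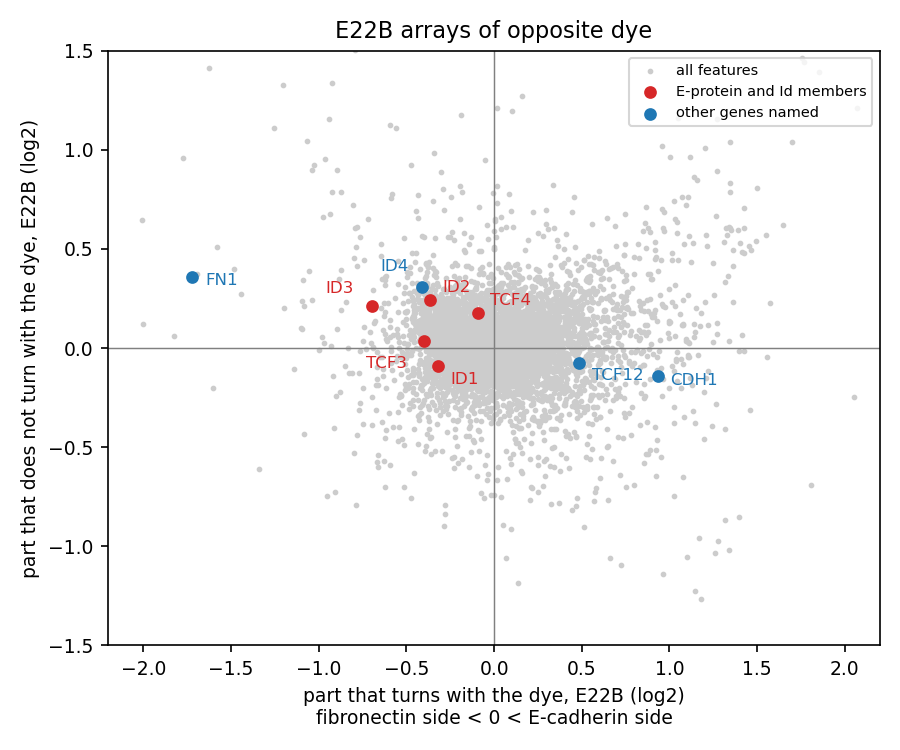
Part of the E22B ratio that turned with the dye (horizontal axis, log2) against the part that did not (vertical axis, log2), for all features (grey), the members (red) and other named genes (blue). ID3, ID2, ID1 and TCF3 lie left of 0 with non-turning parts between -0.09 and 0.24, and TCF4 lies at 0.18 above the axis and -0.09 beside it; 46 of 8657 features lie outside the axes.

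The families have 2 further members on the array, which fall on opposite sides. ID4, the fourth Id gene, stood at -0.72 and -0.10 on the E22B arrays (mean -0.41 ± 0.43), on the side of ID1, ID2 and ID3. TCF12, which encodes the E-protein HEB, stood at 0.56 and 0.41, a mean of 0.49 ± 0.11 on the E-cadherin side. TCF12 thus lay across 0 from TCF3, whose arrays were both below -0.36. In E22A by the channel labels TCF12 stood at 0.22 and 0.29 and ID4 at -0.44 and -0.02, and by the titles each changed side between arrays. The ID4 clones also differed in size and, on E22A array 2, in sign. A clone of AA464856 stood at 0.89 and -0.23 on the E22B arrays as deposited, and another print of it at 0.54 and -0.0012. The last value lies above the clone median of that array, -0.0106. On E22A array 2 the same clones stood at 0.19 and -0.15, and the ID4 gene value is the mean of these 2 clones. The clones of AA454080, which do not enter it, stood there at -0.13 and -0.01. TCF7L2, which is also known by the alias TCF4, has 1 clone of its own symbol with no value on any array.

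In E22A the side of the Id genes depended on the reading. By the channel labels, ID3 stood at -0.58 and -0.76 (mean -0.67 ± 0.13), ID2 at -0.57 and -0.15 (-0.36 ± 0.29) and ID1 at -0.29 and -0.02 (-0.16 ± 0.19). With TCF4, taken as the mean of its clones, 4 of the 5 members were below 0 on both E22A arrays in that reading, beside 34.8% of all features. None of the 5 reached 2-fold on both (0.381% of features did). ID1, ID2 and ID3 were below 0 on all 4 arrays, beside 16.1% of features. By the titles, the means were -0.09 ± 0.95 (ID3), 0.21 ± 0.51 (ID2) and 0.13 ± 0.22 (ID1). In that reading 0 of 5 members were below 0 on both E22A arrays, beside 16.1% of features, 0 of 5 were below 0 on all 4 arrays, beside 4.08%, and 0 of 5 were at 2-fold on both E22A arrays, beside 0.0231%. The E22A and E22B values share the control RNA, so their likeness in the channel-label reading is given side by side and not as a result.

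The dye parts bear on the E22A values. By the channel labels a gene's dye effect stays in the E22A mean. The part of the E22B ratio that did not turn holds any such effect together with the technical difference between the arrays. With 2 arrays these cannot be told apart, and the SD in E22B comes from the same difference. For ID1 the part of the E22B ratio that did not turn was -0.09, on the opposite sign to its E22A mean as deposited (0.16). For ID2 it was 0.24 against 0.36, and for ID3 0.21 against 0.67. The share of these in the E22A means was not tested.

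**Figure D3:**
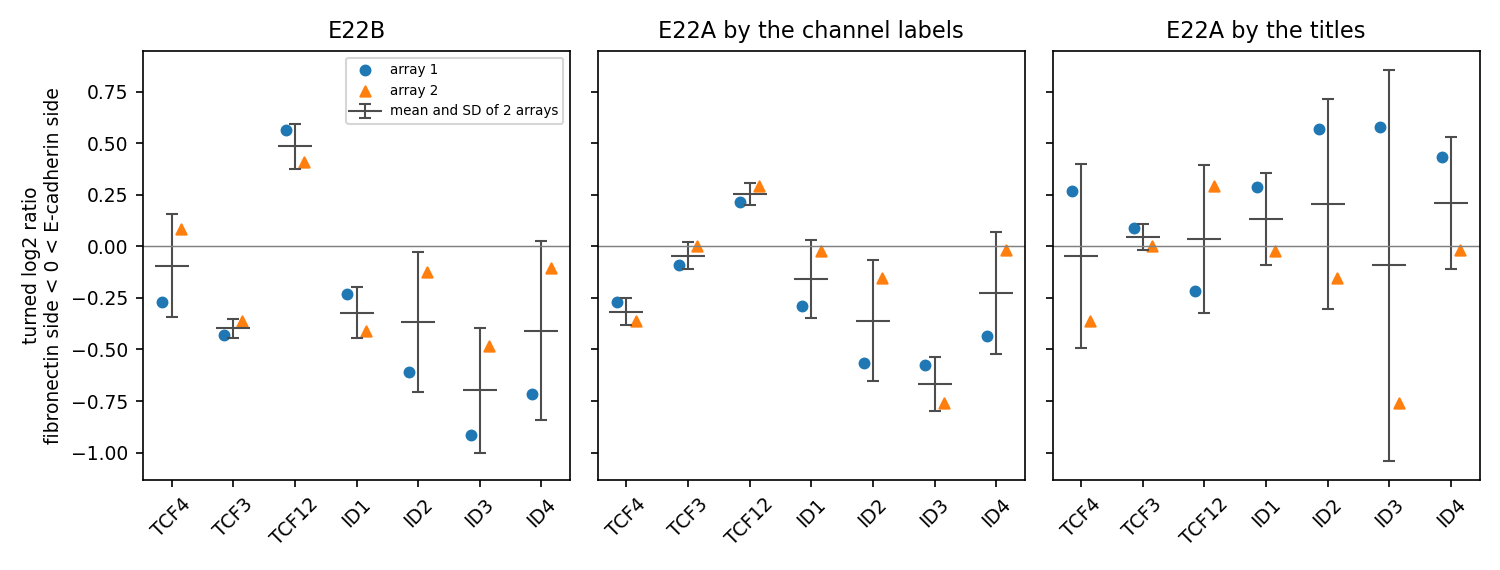
Turned log2 ratio (vertical axis) of the E-protein and Id genes (horizontal axis) on each array, with the mean and SD of 2 arrays, for E22B and for both readings of E22A; negative values are on the fibronectin side. TCF12 lies above 0 and ID1 to ID4 below 0 on both arrays in the first pair of panels, while by the titles the E22A arrays of each Id gene lie on opposite sides of 0.

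The pooled comparison asked whether a gene differed from the control over both transfectants, taken as replicates of E2-2 transfection. It tested the means of E22A and E22B against 0 with limma, over 8657 features with Benjamini-Hochberg adjustment. By the titles 0 of the 5 members passed, all with an adjusted p of 0.982, as did 0 of all features (0%, with 283 at an unadjusted p under 0.05). By the channel labels 0 of the 5 passed, beside 1 feature in all (0.0116%). The smallest adjusted p among the members in that reading was that of ID3, 0.0964, at a pooled -0.68 ± 0.09 (SE, n = 2 transfectants), below 0 on 4 of 4 arrays. ID2 had 0.214 at -0.36, ID1 0.432 at -0.24, TCF4 0.532 at -0.21 and TCF3 0.564 at -0.22. With no change of orientation, the adjusted p of ID3 ran from 0.0696 without E22B array 2 to 0.302 without E22B array 1. With each clone as a feature of its own, 0 of the 8 member clones measured on all arrays passed in either reading, beside 0% (titles) and 0.205% (channel labels) of 10268 clones. The lowest were the ID3 clone of BE277021 (0.0829) and the ID2 clone of H89935 (0.0966). With 2 transfectants this test has 1 residual degree of freedom for each gene, it leaves out the spread of the control, and a p that missed the threshold does not show that a gene was unchanged.

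Genes known to act upstream of Id genes, a list of 25 for BMP and TGF-beta signalling and EGR1, were then described in the same way. Of these, 16 were measured on all 4 arrays and none passed the pooled test in either reading. In E22B, 8 of the 16 were on the fibronectin side of both arrays, 2 on the E-cadherin side of both and 6 on different sides, against 3078, 3016 and 2563 of 8657 features. Their E22B median was -0.19, against -0.00219 over all features. In E22A by the channel labels 7 were on the fibronectin side of both arrays and 2 on the other, against 3013 and 2835 of 8657 features, and their median was -0.15. By the titles their median was 0.04, against 0.00211 over all features.

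The largest E22B means of that list belonged to BMPR1B, a type I BMP receptor, and EGR1, an immediate early factor, and both rested on uneven arrays. BMPR1B had a mean of 3.50 ± 4.27, with 6.52 on array 2. EGR1 had a mean of 1.27 ± 3.21, with 3.54 on array 2 and a value on the fibronectin side on array 1. More even values, named after they were seen, were those of the ligands BMP4, at 1.20 and -0.997 on the E22B arrays before turning (mean -1.10 ± 0.15 after it), and BMP7, at 0.34 and -0.27 (-0.30 ± 0.05). The ligands were not alone in this. ENG (-0.90 ± 0.14), SMAD7 (-0.59 ± 0.08) and TGFBR1 (-0.36 ± 0.07), of the same list, also had even values on that side, each larger in size than that of BMP7. SMAD1, which carries the BMP signal to the nucleus, stood on the other side, at -0.30 and 0.34 before turning (0.32 ± 0.03). SMAD6, an inhibitory SMAD, lacked a value on E22A array 2 in each of its clones. The clones with E22B values stood at -0.57 ± 0.09 and -0.23 ± 0.36.

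**Figure D4:**
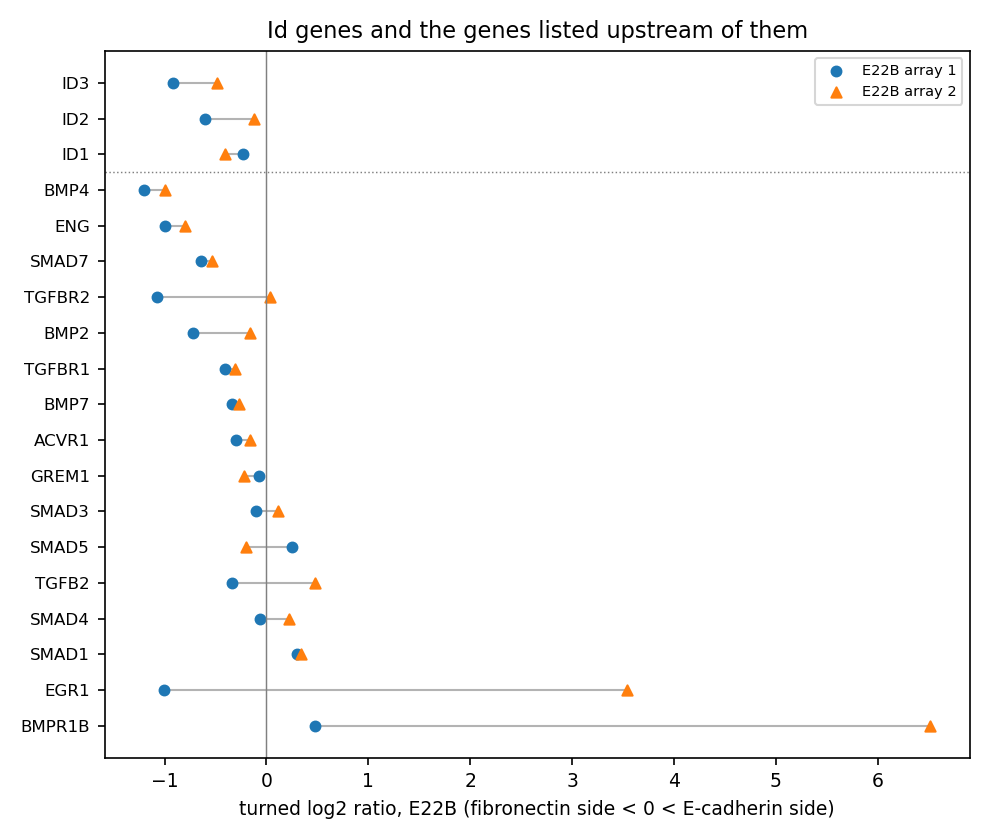
Turned log2 ratio of E22B (horizontal axis) on array 1 (circles) and array 2 (triangles) for the Id genes, above the dotted line, and for the 16 measured genes listed upstream of them, ordered by mean. ID1, ID2 and ID3 and 8 of the 16 lie below 0 on both arrays, and EGR1 and BMPR1B reach 3.54 and 6.52 on array 2 alone.

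The gene whose values were most like those of ID3 was SMAD7, an inhibitory SMAD induced by TGF-beta and BMP signals. Likeness was the Euclidean distance over the 4 centred deposited values, which does not depend on orientation, among 4891 other genes. Over these, SMAD7 lay at a distance of 0.33, where the median gene lay at 1.45. Its centred values were 0.54 and 0.58 in E22A and 0.65 and -0.54 in E22B. COX7B2 came next at 0.35, close to SMAD7. The ID3 values used here are those of the BE277021 clone alone. That clone stood, as deposited, at 0.58, 0.91 and -0.49 on E22A array 1 and E22B arrays 1 and 2. The first print of AA482119 stood at 0.27, 0.57 and -0.78 there. The genes nearest to AA482119 were not sought, so the nearest gene is given for 1 ID3 clone only. Nearest to ID2 were WNT5A, a secreted Wnt ligand, at 0.06 and MNDA at 0.11, against a median of 0.94. Nearest to ID1 were C1orf21 and TOR1A, at 0.13 each, against a median of 0.69. TCF3 was closest to MMP7, a secreted metalloproteinase, and RAPH1, both at 0.08, against 0.70. TCF4 was closest to RASSF1, a Ras-association scaffold, at 0.10 and INTS13 at 0.12, against 0.66. Genes with values near 0 have many close neighbours, so a small distance says less for TCF4, TCF3 and ID1 than for ID3.

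The tissue-restricted partners of E-proteins were hardly measured. Of 23 class II genes listed, 4 had a clone and 0 had a clone with a value on all 4 arrays. TWIST1, also a repressor of E-cadherin, stood at -0.04 ± 0.43 in E22B. MYOD1, the muscle determination factor, stood at 0.29 ± 0.22, and an OLIG2 clone at -0.21 ± 0.06. Another OLIG2 clone had values in E22A alone, at -0.83 and -0.56 as deposited. On E22A array 1 it was opposite in sign to the first, which stood at 0.14 there. The LYL1 clone had a value on E22B array 1 alone (-0.03).

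Genes known as targets of E-proteins or Id proteins numbered 16 in the list, of which 10 were measured on all arrays and none passed the pooled test. In E22B, 3 were on the fibronectin side of both arrays, 2 on the other and 5 on different sides, against 3078, 3016 and 2563 of all 8657 features, with a median of -0.16 against -0.00219. CDH1, whose 4 arrays all agreed in side by the channel labels, and CDKN1B, an inhibitor of cyclin-dependent kinases, had the largest means. CDH1 names the E-cadherin side, so its side in E22B is given by construction, and it enters these counts and the median. CDKN1B stood at -0.46 ± 0.89, with -0.18 on E22B array 1 before turning and -1.09 on array 2. Among the listed repressors of E-cadherin, 2 of 8 were measured on all arrays. KLF8 stood at 1.16 ± 0.05 and ZEB1 at 0.02 ± 0.18 in E22B, neither on the side of the Id genes on both arrays. SNAI1 lacked a value on E22A array 2 and stood at 0.32 ± 0.15 in E22B, on the E-cadherin side of both arrays. The SNAI2 clone had no value.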

How the data were processed

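The authors deposited 1 table of dye ratios, taken as log2, from amplified RNA on a cDNA array, per the labels. Image analysis, background correction, spot filter and normalisation were not given in the sources used here. The annotation lists 2 spots per clone, which were averaged. Clone medians of the arrays, between -0.0106 and 0.00285, were subtracted. Of the 13824 clones, 8744 had a symbol of their own in the platform annotation, 327 had several symbols and 4753 had none. Complete clones (all 4 arrays) were averaged by gene, which gave 8657 features, unnamed clones included. Arrays were turned so that the transfectant's dye had 1 sign, under each reading of the labels. The test was limma 3.58.1 in R 4.3.3 (lmFit, eBayes, threshold 0.05). It was tried on simulated data with known effects, alike in both transfectants, in the title reading only. The channel-label reading, where a dye effect stays in the E22A mean, was not simulated. A single transfectant has no biological replicate, so a size rule of 2-fold on both arrays was used there with no test. The part that turned with the dye is the difference of the E22B arrays divided by 2, and the part that did not is their sum divided by 2.

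The members and gene lists were chosen with earlier results of these data known. Named by rule are all member clones, the 2 genes with the largest E22B mean in each list, CDH1, FN1, relatives of the members, and the 2 genes nearest to each member. Alternatives tried were other centring, scaling, filters, gene summaries and readings, and leaving out each array. No sequences of the members were used here.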

Additional observations from a re-analysis of the deposited data

Results flagged for a closer look

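TCF3 lay on opposite sides of 0 in the transfectants when E22A was turned by the titles. Every E22A array was above 0 (0.09 and 0.003) and every E22B array below (-0.43 and -0.36), a difference between the means of 0.44. The difference was not tested, since each transfectant is 1 sample, and the second E22A value is close to 0. By the channel labels the E22A arrays stood at -0.09 and 0.003, so they did not share a side.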

How the results depend on the processing

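The pooled test called 0 features by the titles in every alternative run. By the channel labels it called 1, which became 0 without centring, with incomplete features kept, with channel 2 over channel 1 and with the E22A pair turned over. It became 4 with arrays scaled alike, 21 with each clone its own feature, and 0 to 31 when an array was left out (31 without E22B array 2). No member passed in any of the 90 member values under these alternatives, the lowest adjusted p being 0.0696. Not all of the 90 are distinct. Those with channel 2 over channel 1, with the E22A pair turned over and without E22A array 1 are equal in both readings and counted under each. The E22A count at 2-fold by the titles rose from 2 to 4 with arrays scaled alike. Leaving out an array asks for 2-fold on 1 array only, so the counts rise by construction, to 181 and 182 for E22A in each reading and to 218 and 263 for E22B. With the median over spots of all clones, ID1 in E22B moved to -1.09, because the spots of BE275812 on E22B array 1 enter, and ID3 in E22A by the channel labels to -0.44. The other means of the members in each transfectant moved by less than 1 SD under centring, scaling, incomplete features and spot medians. Leaving out an array leaves the value of the other, which says nothing of stability: in E22B, ID2 was then -0.13 or -0.61, and TCF4 changed side (0.08 or -0.27). Each ratio sets a transfectant against the control on the same array. The labels carry no replicate numbers, so E22A arrays were not paired with E22B arrays. Signal over background could not be weighed, as no intensities were used here.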

Other observations

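Other helix-loop-helix factors, which include the Myc, HIF, clock and SREBP families, showed no common side. Of 29 listed, 18 were measured on all arrays, with 6 on the fibronectin side of both E22B arrays, 6 on the other and 6 on different sides, and a median of -0.02, against 3078, 3016 and 2563 of all 8657 features and a median of -0.00219. AHR, the dioxin receptor, stood at 0.61 ± 0.35 in E22B, and HIF1A, the hypoxia factor, at 0.41 ± 0.04. In E22A by the channel labels they stood at -0.06 ± 0.41 and 0.15 ± 0.05. Cofactors of E-proteins had 6 of 9 measured and a median of 0.08. The acetyltransferase KAT2B stood at 0.32 ± 0.33 and the LIM-binding adaptor LDB1 at -0.17 ± 0.05. No gene of either list passed the pooled test.

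Of the marker lists, 6 of 10 epithelial genes were measured on all arrays (median 0.55 in E22B, with DSP at 1.42 ± 0.02 and EPCAM at 1.04 ± 2.16). Of these, 3 lay on the E-cadherin side of both E22B arrays, CDH1 among them. KRT8 lay on the fibronectin side of both (-0.39 ± 0.50), and 2 genes, EPCAM included, on different sides. Over all 8657 features these counts were 3016, 3078 and 2563. Of 9 mesenchymal genes 6 were measured (median -0.02, with SPARC at -1.83 ± 2.43 and COL1A2 at 1.77 ± 2.04). Here 3 lay on the E-cadherin side of both arrays, 2 on the fibronectin side, FN1 among them, and 1 on different sides. CDH1 and FN1 themselves name the sides. The others were 1 of 4 endothelial genes (VWF at -0.02 ± 0.15) and 3 of 3 blood genes (-0.05, with PTPRC at 0.22 ± 0.23 and CD68 at -0.18 ± 0.08).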
